A study of Mus musculus with 9 samples.

Results

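The nuclear genes of the mitochondrial ribosome were compared between Yap-deficient and Yap-expressing pancreatic ductal adenocarcinoma (PDAC) cells of mice. The set consisted of all protein-coding genes whose symbol was Mrpl or Mrps followed by a number, read from the Ensembl identifiers of the count files, with pseudogenes left out. It held 78 of the 47643 genes in the files, 49 with an Mrpl symbol (large subunit) and 29 with an Mrps symbol (small subunit), on 17 chromosomes. KPF libraries (n = 6) came from GFP+Yap+ cells and KPYYF libraries (n = 3) from Tm+Yap- cells, both sorted by flow cytometry from tumors of tamoxifen-treated mice. Mice of both groups carried Trp53 frt/+, Pdx-Flp and R26 FSF-CreER/Dual, so that Flp under the Pdx1 promoter removed the frt-flanked Trp53 allele and lit EGFP in the pancreas. KPYYF mice also carried Yap flox/flox, and tamoxifen in the diet, given once tumors could be felt, activated CreER, which exchanges EGFP for tdTomato (Tm) and deletes floxed Yap. By the design of the reporter, GFP+ cells had not recombined, and the effects of Yap, the floxed genotype and Cre recombination cannot be told apart in this comparison. The Tm+ cells were taken from nodules that relapsed after Yap loss. KPF libraries 4504h and 4504s share a mouse number, sex and age are not given per library, and where samples were not separate animals the p values measure only the spread between these libraries. The log2 fold change of KPYYF over KPF libraries is written log2FC, and its standard error SE.

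Mitochondria hold their own ribosome, which translates the few proteins encoded by mitochondrial DNA, core subunits of the respiratory chain and of ATP synthase. Its rRNAs are transcribed from mitochondrial DNA, while its proteins are encoded in the nucleus, made in the cytosol and imported, so its assembly draws on both genomes. Some of these proteins descend from the bacterial ribosome and others are found only in mitochondria, where they form, among other parts, much of the central protuberance and of the membrane-facing rim of the exit tunnel.

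The libraries held 8116539 to 9635514 reads on genes, as raw counts from 3′ end sequencing, in which a transcript gives reads near its end only. Between 43.8 and 53.4% of reads in each file had no unique alignment and were not assigned, 43.8 to 48.5% in KPF and 49.2 to 53.4% in KPYYF libraries. Yap1 was at 41.8 to 151 CPM (counts per 1000000 reads on genes, with TMM scaling) in KPF and at 0.712 to 7.12 CPM in KPYYF libraries, in the direction of the labels. Markers of PDAC epithelium summed to 3579 to 11955 CPM in KPF and 648 to 2147 CPM in KPYYF libraries, and all 9 of them had negative log2FCs, 3 with an adjusted p under 0.05. Immune markers summed to 8681 CPM in KPF library 4601 and 3245 CPM in KPF library 4504s, against 447 to 867 CPM in the others. Acinar markers summed to 20285 CPM in KPF library 4504s and 5969 CPM in KPYYF library 4449, against 66.6 to 985 CPM in the others, with Amy2a5 at 0 in all. Fibroblast markers summed to 418 to 5579 CPM in KPF and 1119 to 3187 CPM in KPYYF libraries, endothelial markers to at most 67.8 CPM, islet markers to at most 74.1 CPM and erythroid markers to at most 260 CPM. Reads of Xist, the RNA of the inactive X chromosome, numbered 3452 to 16108 in the 3 KPYYF libraries and 5878 to 10933 in KPF libraries 4435, 4504h and 4504s, but 71 to 159 in KPF libraries 4269, 4515 and 4601.

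Taken as a whole, the set stood at a higher level in the Yap-deficient cells. The 78 genes summed to 2862 CPM in the lowest, 3154 CPM in the median and 3383 CPM in the highest KPF library, and to 3639, 4069 and 4653 CPM in KPYYF libraries 4449, 4891 and 4938. All 3 KPYYF libraries lay above all 6 KPF libraries. The means were 3145 ± 190 CPM (SD, n = 6) and 4120 ± 509 CPM (SD, n = 3), a ratio of 1.31. In bulk RNA of sorted cells, a different share of cells of a type and a different amount of RNA per cell cannot be told apart.

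**Figure D1:**
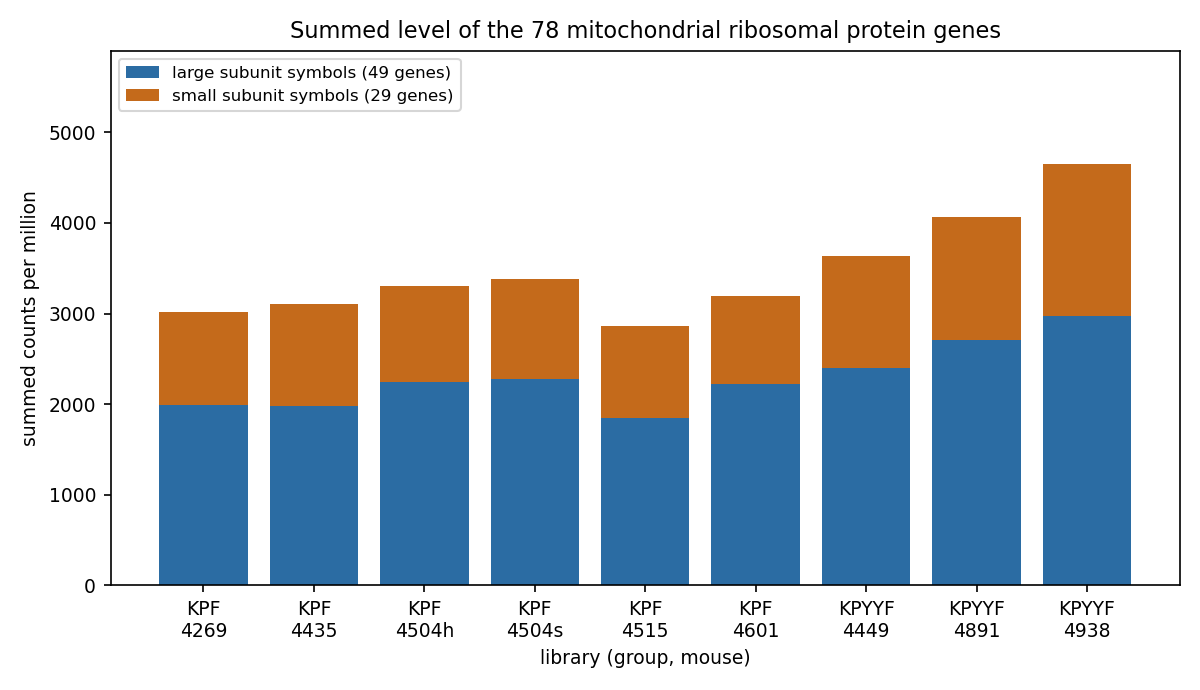
Summed level of the 78 mitochondrial ribosomal protein genes in each of the 9 libraries, in CPM, with the large subunit symbols in blue and the small subunit symbols in orange. The 3 KPYYF libraries reach 3639 to 4653 CPM and the 6 KPF libraries 2862 to 3383 CPM.

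Both subunits contributed. The large subunit symbols summed to 1847 to 2276 CPM in KPF and 2398 to 2977 CPM in KPYYF libraries (ratio of means 1.29), and the small subunit symbols to 978 to 1136 and 1240 to 1676 CPM (ratio 1.35), with no overlap in either. The small subunit symbols include Mrps30 and Mrps18a, which are large subunit proteins, and the abundant Mrps6. Their log2FCs were 0.89, 0.59 and 0.82. The subunit ratios were not computed without these genes, so 1.35 against 1.29 does not show a larger rise in the small subunit. With Mrps30 and Mrps18a placed in the large subunit, ratios of means were computed by class. For proteins with a bacterial counterpart they were 1.35 (large) and 1.40 (small, with Mrps6). For proteins specific to mitochondria they were 1.22 (large) and 1.18 (small). Mrps6 had a mean of 219 CPM (KPF) and 387 CPM (KPYYF), and Mrps6 alone supplied 626 CPM in KPYYF library 4938. Without it, the other 77 genes still summed to 2565 to 3115 CPM in KPF and 3369 to 4027 CPM in KPYYF libraries, a ratio of 1.28. On a log scale, where each gene weighs the same, the mean of the 74 tested members was 4.72 to 5.09 log2 CPM in KPF and 5.05 to 5.43 log2 CPM in KPYYF libraries, so KPYYF library 4449 lay within the KPF range. The mean over all genes tested was 3.67 to 4.08 log2 CPM in KPF and 3.58 to 3.64 log2 CPM in KPYYF libraries. The members' mean exceeded it by 0.83 to 1.27 in KPF and by 1.47 to 1.83 in KPYYF libraries, without overlap.

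No single member passed the test. After a filter on a sum of at least 100 counts, 74 members were tested among 14105 genes with edgeR's quasi-likelihood test, and 0 had a Benjamini-Hochberg adjusted p under 0.05 in either direction, against 0.305% of all genes higher and 0.794% lower in KPYYF libraries. The smallest adjusted p was 0.0933, for Mrps26. At an unadjusted p under 0.05, 11 members (14.9%) were higher, against 6.1% of all genes, and 1 member (1.35%) was lower, against 10% of all genes. With a change of more than 2-fold also required, 5 were higher (4.2% of all genes) and 1 was lower (9.2% of all genes). By the DESeq2 Wald test, 3 members had an adjusted p under 0.05, all higher (1.96% of all genes), namely Mrps26, Mrpl15 and Mrpl13.

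The differences were small and mostly of one sign. Of the 74 members, 56 had a positive log2FC (75.7%), against 46.7% of all genes, and the median was 0.32, against -0.07 over all genes. For 68 members the fitted change was within 2-fold in either direction. The standard errors had a median of 0.42 and ran from 0.28 to 1.48 on the log2 scale. In 5 members every KPYYF library lay above every KPF library, against 3.92% of all genes, and in 0 members every KPYYF library lay below, against 5.18% of all genes.

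**Figure D2:**
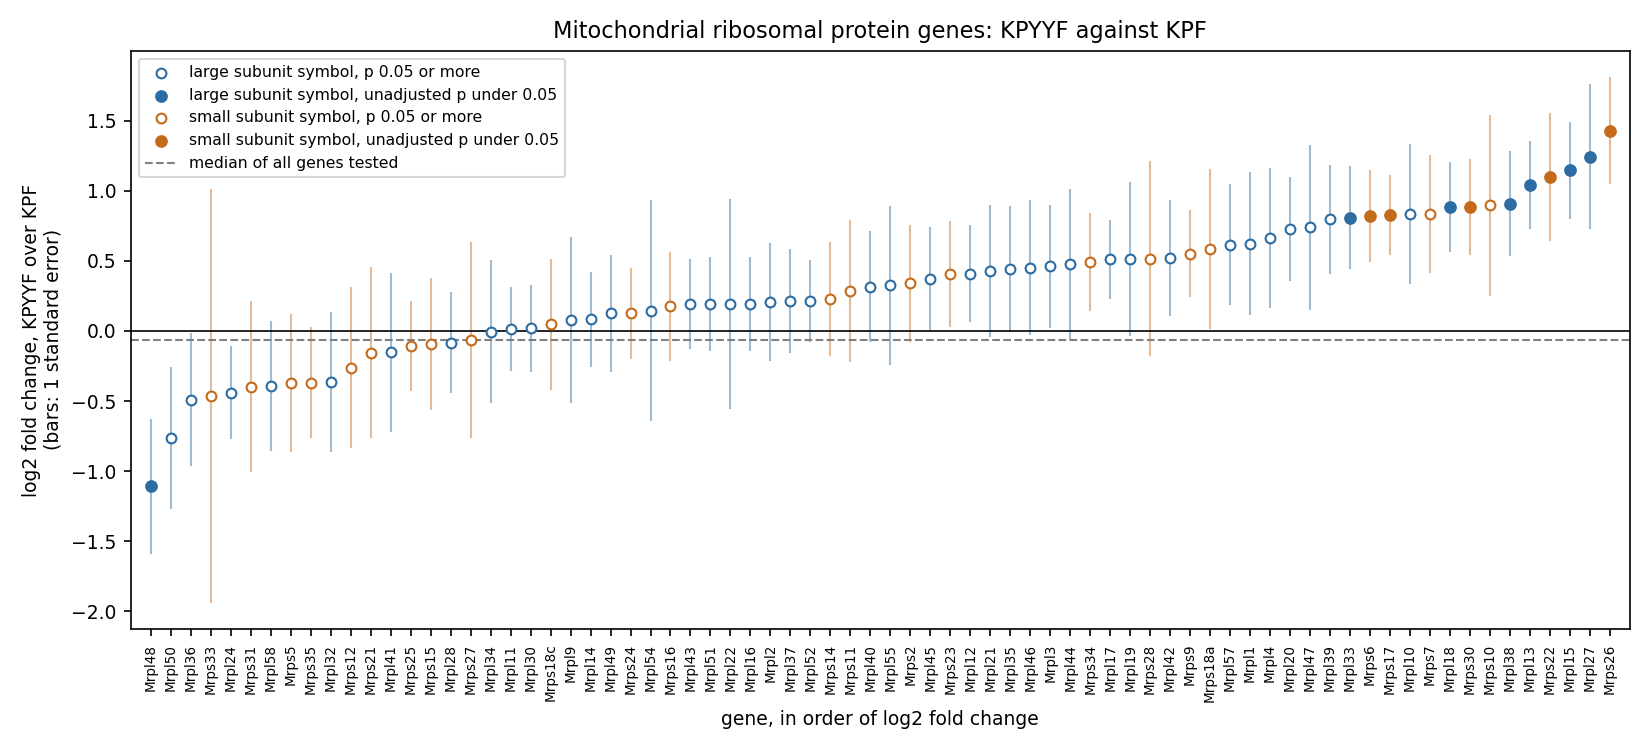
Fitted log2FC of KPYYF over KPF libraries for the 74 tested members, in order, with bars of 1 standard error, large subunit symbols in blue, small subunit symbols in orange and filled points for an unadjusted p under 0.05. The values run from -1.11 for Mrpl48 to 1.43 for Mrps26, and 56 of 74 lie above 0.

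The shift was unevenly spread over the 3 KPYYF libraries. KPYYF library 4938 had 31 members above and 3 below the range of the KPF libraries, library 4891 had 21 above and 7 below, and library 4449 had 20 above and 12 below. Over all genes tested, 17.4, 18.7 and 20.8% lay above and 19.2, 20.7 and 22.5% lay below that range in the same order. Without library 4938, 44 of 74 members had a positive log2FC (45.99% of all genes), with a median of 0.23, and 7 were higher at an unadjusted p under 0.05 (4.77% of all genes). Library 4449, the one with acinar markers, held the lowest values of Mrps12, Mrpl48 and Mrps5 and the highest of Mrps26, Mrpl27 and Mrpl10.

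**Figure D3:**
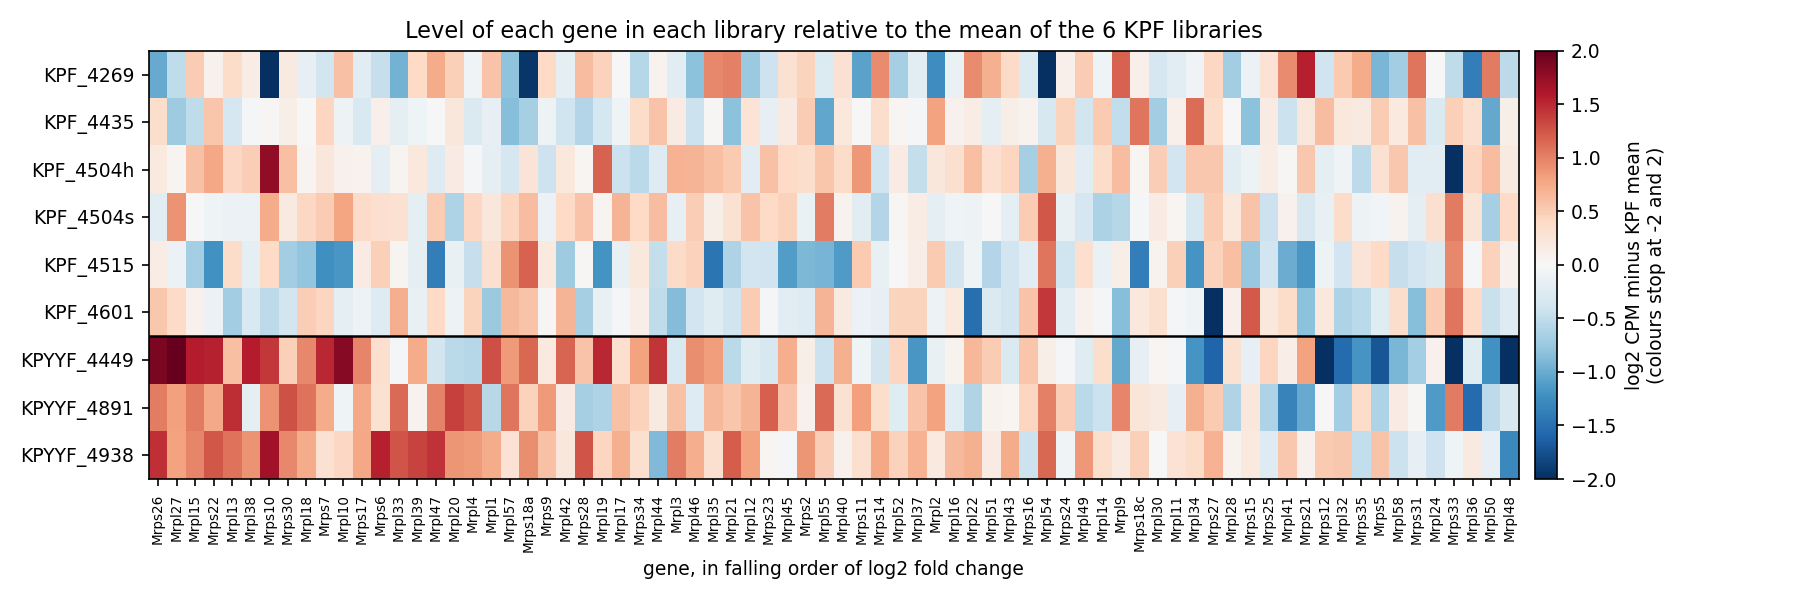
Log2 CPM of each tested member in each library minus the mean of the 6 KPF libraries, with red for higher and blue for lower and colours that stop at -2 and 2, genes in falling order of log2FC. The row of KPYYF library 4938 is red for most genes, with 31 of 74 above the KPF range, and the row of KPYYF library 4449 holds 20 above and 12 below it.

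Promoter windows are shown as a description of the set, and whether promoter letters bear on its values was not tested. RefSeq windows of 300 bases (250 before to 50 after the start, GRCm38.p6) were found for 69 of the 78 genes, 75 windows in all. The windows of the 4 named members with the smallest p that have an entry are shown, 5′ to 3′ on the gene's strand. Capitals mark matches to any of the motifs searched on both strands, which were the core CGCATGCG of the NRF1 motif, the ETS/GABP motif CCGGAAG, the YY1 motif AAGATGGCG, the E-box CACGTG, the Sp1 motif GGGCGG and the TEAD motif GGAATG. No motif contains another.
Mrps26, chr2:130563507-130563806, plus strand: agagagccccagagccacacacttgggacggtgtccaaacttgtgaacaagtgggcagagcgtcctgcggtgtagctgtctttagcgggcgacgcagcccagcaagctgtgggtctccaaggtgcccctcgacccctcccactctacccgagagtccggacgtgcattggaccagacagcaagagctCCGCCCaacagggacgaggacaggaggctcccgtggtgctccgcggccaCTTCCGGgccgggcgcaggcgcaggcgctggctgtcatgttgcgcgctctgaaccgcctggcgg
Mrps17, chr5:129715247-129715546, plus strand: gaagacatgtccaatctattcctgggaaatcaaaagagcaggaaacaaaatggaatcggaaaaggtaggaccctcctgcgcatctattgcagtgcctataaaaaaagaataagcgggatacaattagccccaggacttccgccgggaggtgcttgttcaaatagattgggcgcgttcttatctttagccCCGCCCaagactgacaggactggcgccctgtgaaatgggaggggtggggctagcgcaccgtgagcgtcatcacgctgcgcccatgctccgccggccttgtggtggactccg
Mrpl18, chr17:12916042-12916341, minus strand: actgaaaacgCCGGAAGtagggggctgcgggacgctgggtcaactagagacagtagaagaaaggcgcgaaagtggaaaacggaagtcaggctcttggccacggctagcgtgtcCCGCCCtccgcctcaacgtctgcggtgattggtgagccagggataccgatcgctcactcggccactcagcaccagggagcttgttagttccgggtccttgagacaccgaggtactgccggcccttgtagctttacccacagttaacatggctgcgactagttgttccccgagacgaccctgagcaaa
Mrps30, chr13:118387203-118387502, minus strand: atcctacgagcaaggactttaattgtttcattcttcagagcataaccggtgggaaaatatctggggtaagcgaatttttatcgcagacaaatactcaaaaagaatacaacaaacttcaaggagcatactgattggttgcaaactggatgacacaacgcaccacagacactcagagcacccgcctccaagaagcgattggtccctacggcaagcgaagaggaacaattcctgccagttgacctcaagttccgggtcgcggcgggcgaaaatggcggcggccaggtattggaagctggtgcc
The Mrps26 and Mrpl18 windows each hold 1 ETS/GABP and 1 Sp1 match, the Mrps17 window holds 1 Sp1 match, and the Mrps30 window holds none of the 6 motifs.

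Over all 75 windows, the ETS/GABP motif was present in 26 (34.7%), against 16.5% of 13183 windows of genes tested and 8.86% of all 32851 windows. The YY1 motif was present in 8 (10.7%), against 2.81% of windows of genes tested and 1.40% of all windows. The NRF1 core was found in 7 (9.33%), against 3.51% and 1.87%. The Sp1 motif was found in 39 windows (52.0%, against 60.9% and 35.7%), the E-box in 7 (9.33%, against 9.69% and 7.15%) and the TEAD motif in 8 (10.7%, against 12.6% and 14.7%). ETS/GABP, YY1 and NRF1 core matches were thus more frequent in these windows than in those of the genes tested, and E-box and TEAD matches were not, without a test of the shares. The 24 tested members with an ETS/GABP match had a median log2FC of 0.20 and the 41 without had 0.28, whereas the 8 with a TEAD match had 0.41 and the 57 without had 0.21. These differences were not tested. These matches describe letters in a window and not bound sites.

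Members often lie head to head with another gene. A gene on the opposite strand started within 1000 bases of the start of 32 of the 74 tested members (43.2%), against 15.4% of the 12680 protein-coding genes tested. Distances here are between starts, and the genes of a pair can overlap. Mrpl46 and Mrps11 form such a pair with each other, with starts 412 bases apart and overlapping exons. Mrps12, of the decoding centre, lies 172 bases from Sars2, the mitochondrial seryl-tRNA synthetase, Mrpl36 lies 29 bases from Ndufs6, a complex I subunit, and Mrpl43 lies 779 bases from Twnk, the mitochondrial DNA helicase. Of 29 members whose partner was also tested, 17 had a log2FC of the same sign as the partner, without a share over all genes to set beside it. Mrpl46 and Mrps11 each count among the 17. Also among them was Mrpl18, with its partner Tcp1, a chaperonin subunit that had a log2FC of 0.69 (SE 0.23, adjusted p = 0.164).

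Of the large subunit proteins with a bacterial counterpart, 24 of 29 tested had a positive log2FC, with a median of 0.43. At an unadjusted p under 0.05, 5 were higher and 0 lower. For this class and the classes and lists below, the shares over all genes were 46.7% positive, 6.1% higher and 10% lower. Mrpl15 (ENSMUSG00000033845, mm10 chr1:4773206-4785739, minus strand), a core protein of the large subunit, was at 23.7, 39.1 and 57.2 CPM in the lowest, median and highest KPF library, and at 113, 78.1 and 74.5 CPM in KPYYF libraries 4449, 4891 and 4938. Its groups did not overlap, and its log2FC was 1.15 (SE 0.35, adjusted p = 0.125 in edgeR's quasi-likelihood test). Mrpl13 (ENSMUSG00000022370, chr15:55534094-55557748, minus strand), also of the core, was at 45.2, 81.1 and 98.3 CPM in KPF and 112, 204 and 156 CPM in KPYYF libraries, again without overlap. Its log2FC was 1.04 (SE 0.31, adjusted p = 0.127 by edgeR). Mrpl13 starts 340 bases from the start of Mtbp, an overlapping gene on the opposite strand that had a log2FC of 0.94 (adjusted p = 0.665). The 8 tested neighbours of Mrpl13 within 1000000 bases had a median of 0.42.

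Mrpl18 (ENSMUSG00000057388, chr17:12911349-12916345, minus strand) sits in the central protuberance, where the large subunit meets the small one. It was at 24.6, 43.1 and 60.1 CPM in the lowest, median and highest KPF library, and at 82.6, 90.4 and 71.5 CPM in the KPYYF libraries. The groups did not overlap, with a log2FC of 0.88 (SE 0.32, adjusted p = 0.191 by edgeR). Mrpl27, which reaches toward the peptidyl transferase centre, was at 6.04, 9.91 and 18.9 CPM in KPF and 41.2, 17.9 and 17.9 CPM in KPYYF libraries, which gave 1.24 on the log2 scale (SE 0.51, adjusted p = 0.249). The highest value was that of library 4449, and without this library the log2FC was 0.72 (adjusted p = 0.574). Mrpl33, named here after its values were seen, had a log2FC of 0.81 (adjusted p = 0.297), with KPYYF library 4449 at 90.8 CPM inside the KPF range of 48.2 to 154 CPM.

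**Figure D4:**
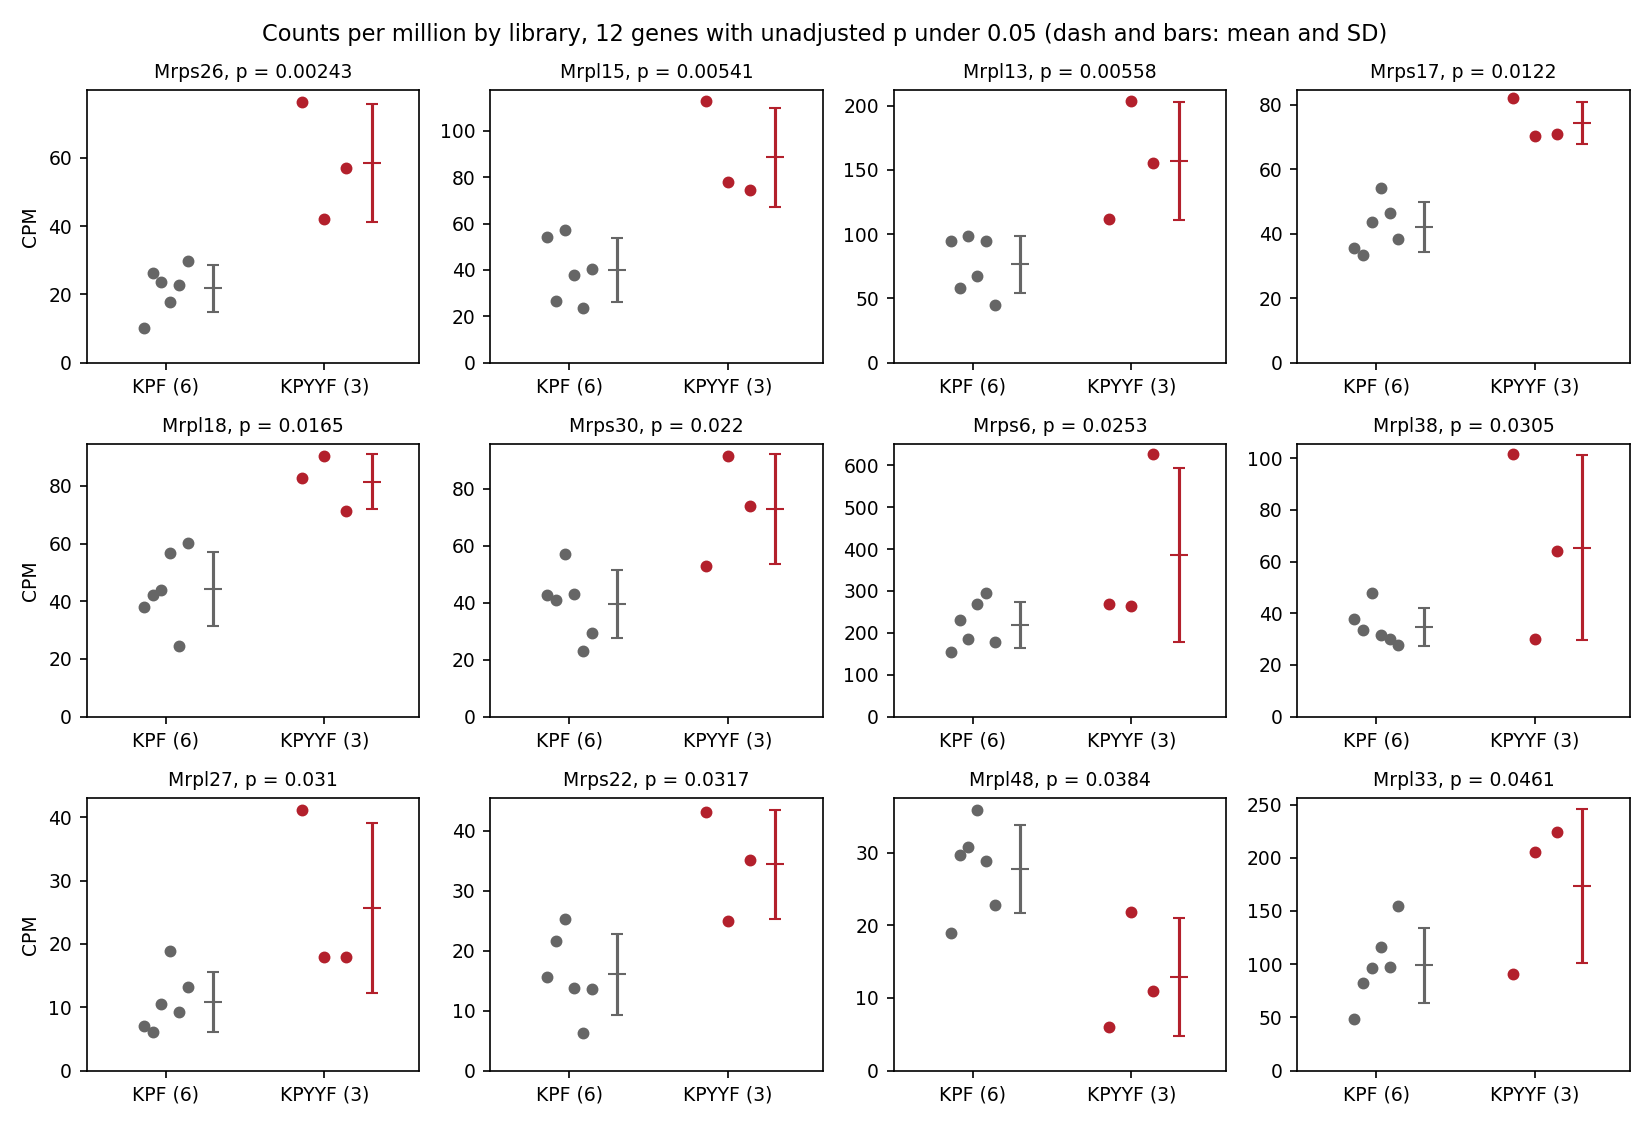
CPM in each library of the 12 members with an unadjusted p under 0.05, KPF in grey and KPYYF in red, each axis from 0, with dashes and bars for the mean and SD. The groups do not overlap in the first 5 panels (Mrps26, Mrpl15, Mrpl13, Mrps17 and Mrpl18), and Mrpl48 is the single gene with a lower mean in KPYYF libraries.

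The stalk of the large subunit, which recruits translation factors, is built from Mrpl10, Mrpl11 and Mrpl12. All 3 had positive log2FCs and 0 had an unadjusted p under 0.05. Mrpl12, which is also known to bind the mitochondrial RNA polymerase, was at 86.0, 148 and 215 CPM in the lowest, median and highest KPF library and at 121, 231 and 253 CPM in the KPYYF libraries (log2FC 0.41, SE 0.35, adjusted p = 0.619). Mrpl10 had a log2FC of 0.83 (SE 0.50, adjusted p = 0.450), carried by 77.8 CPM in KPYYF library 4449 against 20.7 and 29.2 CPM in the other two. Mrpl11 was at 42.5 to 77.6 CPM in KPF and 49.8 to 68.3 CPM in KPYYF libraries (log2FC 0.02, SE 0.30, adjusted p = 0.988), and its sign depended on the library left out.

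Around the exit tunnel, where new membrane proteins leave the ribosome, 6 of 7 tested members had a positive log2FC, with a median of 0.47 and 0 with an unadjusted p under 0.05. Mrpl45, which ties the ribosome to the inner membrane, was at 21.4, 55.0 and 63.8 CPM in KPF and 77.2, 68.9 and 45.4 CPM in KPYYF libraries (log2FC 0.37, SE 0.37, adjusted p = 0.689). Mrpl44, which has a ribonuclease III-like fold, had a log2FC of 0.47 (SE 0.54, adjusted p = 0.731), and -0.33 without KPYYF library 4449. Mrpl24 was the exception, with 76.6, 86.8 and 133 CPM in KPF and 99.6, 42.8 and 70.6 CPM in KPYYF libraries (log2FC -0.44, SE 0.33, adjusted p = 0.568).

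Of the large subunit proteins specific to mitochondria, 16 of 20 tested had a positive log2FC (46.7% of all genes), with a median of 0.27. At an unadjusted p under 0.05, 2 were higher (6.1% of all genes) and 1 lower (10% of all genes). Mrps30, which despite its name is a large subunit protein, was at 23.1, 41.7 and 57.2 CPM in KPF and 53.0, 91.4 and 74.0 CPM in KPYYF libraries, with overlap in library 4449 (log2FC 0.89, SE 0.34, adjusted p = 0.217). Its only 2 tested neighbours within 1000000 bases had a median log2FC of 2.80, where for the other members with an unadjusted p under 0.05 such medians ran from -0.28 (Mrpl48) to 0.42 (Mrpl13). Mrpl38, of the central protuberance, was at 27.5, 32.5 and 47.9 CPM in KPF and 102, 30.1 and 64.2 CPM in KPYYF libraries (log2FC 0.91, SE 0.38, adjusted p = 0.248). Without KPYYF library 4449, its log2FC was 0.44 (adjusted p = 0.627).

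Mrpl48, likewise of the central protuberance, was the single member with a lower level at an unadjusted p under 0.05. It was at 18.9, 29.2 and 35.9 CPM in the lowest, median and highest KPF library and at 5.94, 21.8 and 11.0 CPM in the KPYYF libraries, so library 4891 lay within the KPF range. Its log2FC was -1.11 (SE 0.48, adjusted p = 0.273 by edgeR), and p was under 0.05 in 3 of the 9 fits that each left out 1 library. A pseudogene, Mrpl48-ps, matches the end of its transcript, where reads of this assay fall. Mrpl50 (-0.76, adjusted p = 0.506), Mrpl36 (-0.49, adjusted p = 0.680) and Mrpl58 (-0.39, adjusted p = 0.742) also had negative values, the last a peptidyl-tRNA hydrolase that frees stalled peptides.

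In the small subunit, the proteins with a bacterial counterpart and those specific to mitochondria had medians of 0.26 and -0.07, with positive values in 12 of 16 and 4 of 9 tested. At an unadjusted p under 0.05, 2 of each class were higher (6.1% of all genes) and 0 were lower (10% of all genes). Mrps26 (ENSMUSG00000037740, chr2:130563742-130568695, plus strand), a protein specific to mitochondria, was at 10.1, 23.2 and 29.9 CPM in the lowest, median and highest KPF library and at 76.5, 42.1 and 57.1 CPM in the KPYYF libraries. The groups did not overlap, and the log2FC of 1.43 (SE 0.38, adjusted p = 0.0933 by edgeR) was the largest of the 74. It was 1.19 to 1.62 when each library was left out in turn, with p under 0.05 in 9 of 9 fits.

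Mrps17 (ENSMUSG00000034211, chr5:129715497-129722556, plus strand), an RNA-binding protein of the small subunit with a bacterial counterpart, was at 33.5, 41.1 and 54.2 CPM in KPF and 81.9, 70.2 and 71.0 CPM in KPYYF libraries. The groups did not overlap, with a log2FC of 0.83 (SE 0.28, adjusted p = 0.170 by edgeR). Mrps22, specific to mitochondria, had 6.20, 14.7 and 25.3 CPM in KPF and 43.1, 24.9 and 35.1 CPM in KPYYF libraries (log2FC 1.10, SE 0.46, adjusted p = 0.251), with overlap of library 4891. Mrps10, of the head of the small subunit, ranged from 2.53 to 50.6 CPM within KPF alone and had a log2FC of 0.90 (SE 0.65, adjusted p = 0.545).

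Mrps6, named here after its values were seen, had a log2FC of 0.82 (SE 0.33, adjusted p = 0.227), with KPYYF library 4938 apart from the rest. That library was at 626 CPM, while the other 2 KPYYF libraries, at 270 and 264 CPM, lay within the KPF range of 154 to 296 CPM. Without library 4938, the log2FC was 0.29. The Mrps6 locus (chr16:92058270-92112227, plus strand) shares exon sequence on the same strand with Slc5a3, a myo-inositol transporter, which had a log2FC of 1.33 (SE 0.36, adjusted p = 0.0995 by edgeR), so reads of these genes may not be fully separated.

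Among small subunit members with negative values, Mrps12, a protein of the decoding centre, was at 21.3, 25.8 and 43.3 CPM in KPF and 3.68, 28.2 and 40.4 CPM in KPYYF libraries (log2FC -0.26, SE 0.57, adjusted p = 0.881). The low value of library 4449 set the sign, and without that library the log2FC was 0.25. Mrps31 (-0.40, adjusted p = 0.816), Mrps5 (-0.37, adjusted p = 0.782) and Mrps35 (-0.37, adjusted p = 0.715) likewise had negative values within 1 standard error of 0.

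The 3 mammalian relatives of bacterial ribosomal protein S18 occupy different places, Mrps18a in the large and Mrps18b and Mrps18c in the small subunit. Mrps18a was at 3.79, 20.5 and 35.1 CPM in the lowest, median and highest KPF library and at 34.3, 21.2 and 29.3 CPM in the KPYYF libraries (log2FC 0.59, SE 0.57, adjusted p = 0.678). Mrps18c was at 9.52, 26.4 and 53.2 CPM in KPF and 22.4, 30 and 35.1 CPM in KPYYF libraries (log2FC 0.05, SE 0.47, adjusted p = 0.978). For Mrps18a, 2 standard errors around the estimate spanned -0.55 to 1.73, and for Mrps18c -0.89 to 0.99, intervals that reach nearly 2-fold on both sides for Mrps18c.

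Mrps18b was not tested, with 29 counts in all, in KPF libraries 4504h, 4504s and 4601 only. The other 3 members below the filter were Mrpl23 (65 counts), Mrpl53 (38 counts, all in KPF library 4435) and Mrps36 (2 counts, in KPF library 4601), a protein now placed in the 2-oxoglutarate dehydrogenase complex. A count of 0 allows up to 3 counts, which is 0.292 to 0.437 CPM per library, for counting error only. Reads that match several places are not counted here, and 17 of the 78 members, 14 of them tested, have a pseudogene transcript at least 97% identical over at least 100 of their last 300 bases. Among the 17 are Mrpl18, Mrpl27, Mrpl48, Mrps5, Mrps10, Mrps18b, Mrps18c and Mrps36. Exons of 28 members overlap a gene on the opposite strand and those of 8 a gene on the same strand, and whether the counting used strand is not given in the sources used here.

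The subunits that carry other names, Dap3, Ptcd3, Chchd1, Aurkaip1 and Gadd45gip1, had a median log2FC of 0.15, and 3 of 5 were positive. None of the 5 had an unadjusted p under 0.05. Dap3, a GTP-binding small subunit protein, had the highest value (0.46, SE 0.29, adjusted p = 0.477) and Ptcd3 the lowest (-0.34, adjusted p = 0.863).

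Assembly factors, translation factors and tRNA synthetases of mitochondria had 0 genes with an adjusted p under 0.05 and 0 with an unadjusted p under 0.05 in edgeR's test. Of 24 assembly factors, 14 had positive values with a median of 0.30. They ran from Mterf3 (-1.95, SE 1.84, adjusted p = 0.667) to Ybey (2.23, SE 1.66, adjusted p = 0.561), an rRNA endonuclease. Both extremes had few reads. Mterf3 was at 0 to 6.20 CPM in KPF and 0 to 1.86 CPM in KPYYF libraries, and Ybey at 0 to 3.08 and 3.39 to 9.50 CPM. Of 15 translation factors, 10 had positive values with a median of 0.37. They ran from Taco1 (-1.23, SE 1.84, adjusted p = 0.811), a translational activator, to Mrrf (1.08, SE 0.65, adjusted p = 0.455), the ribosome recycling factor. Taco1 was at most at 3.11 CPM in any library. The translation factors summed to 317 to 521 CPM in KPF and 554 to 565 CPM in KPYYF libraries, without overlap. Of 17 mitochondrial aminoacyl-tRNA synthetases, 8 had positive values with a median of -0.09, and their sums overlapped (283 to 457 and 304 to 353 CPM).

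The RNAs made inside mitochondria mostly had negative values, and 0 of them had an unadjusted p under 0.05. The rRNAs of the mitochondrial ribosome, mt-Rnr1 and mt-Rnr2, had log2FCs of -0.22 (SE 0.28, adjusted p = 0.763) and -0.48 (SE 0.28, adjusted p = 0.435), and together were at 13278 to 24565 CPM in KPF and 9822 to 18483 CPM in KPYYF libraries. How such counts from 3′ end sequencing relate to the amount of rRNA was not tested. Of 8 tested mRNAs of mitochondrial DNA, 2 had positive values, with a median of -0.27, from mt-Nd1 (-0.47, adjusted p = 0.497) to mt-Nd6 (0.79, adjusted p = 0.512). Their sums overlapped, with 8471 to 15612 CPM in KPF and 5308 to 15937 CPM in KPYYF libraries. The other 5 of 13 (mt-Co2, mt-Co3, mt-Atp6, mt-Atp8 and mt-Nd4l) did not pass the filter, with 3 listed at 0 in every library and none above 1.55 CPM in any, so the sums cover only part of these transcripts. Of 10 genes of mitochondrial DNA transcription and replication, 7 had positive values with a median of 0.46. Polg2, the accessory subunit of the mitochondrial DNA polymerase, had 1.44 (SE 0.63, adjusted p = 0.275), and Tfb2m, a transcription initiation factor, had -0.86.

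**Figure D5:**
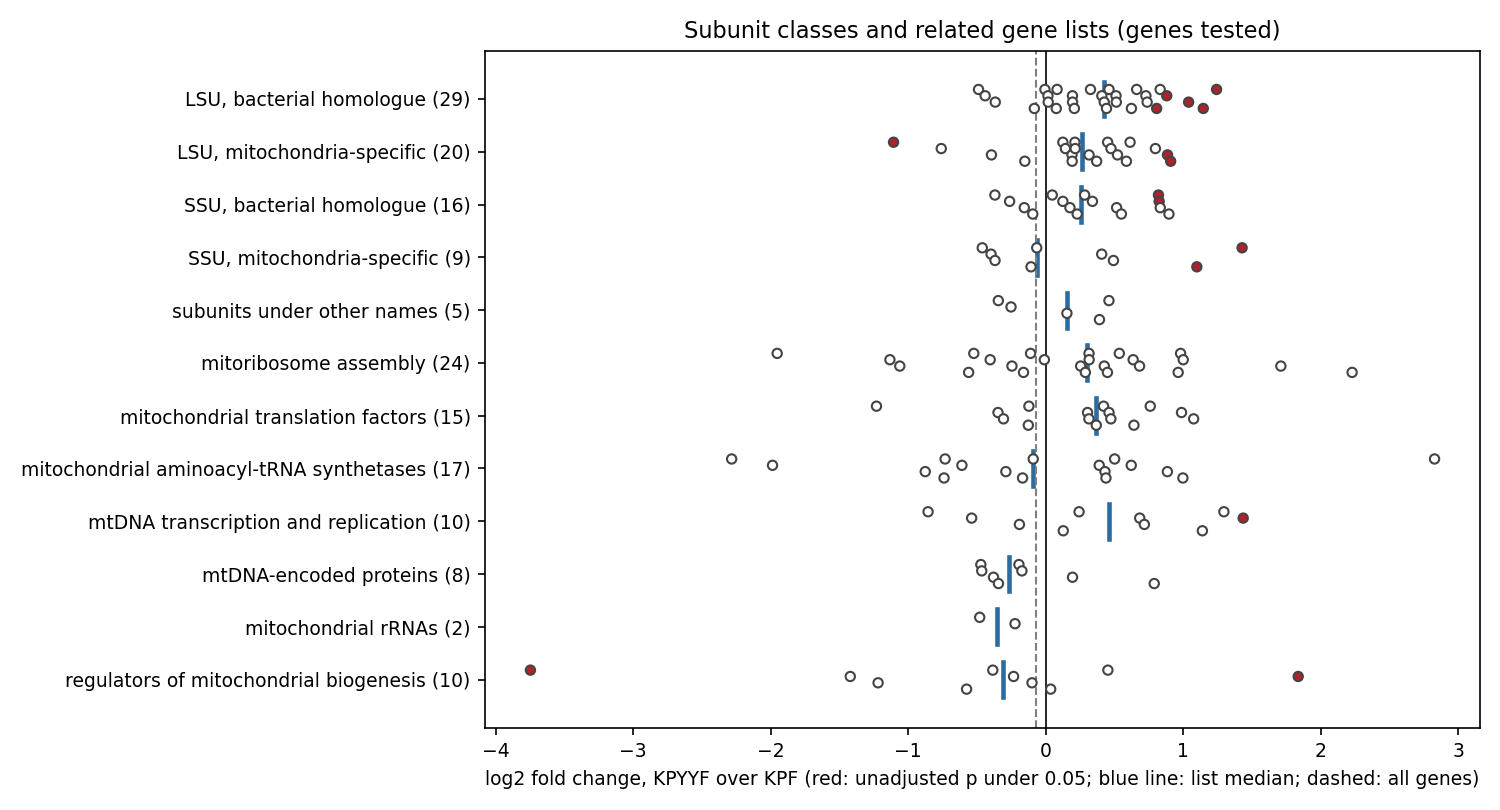
Fitted log2FC of KPYYF over KPF libraries of the genes tested, by subunit class and related list, 1 point a gene, red for an unadjusted p under 0.05, with a blue line at each list's median and a dashed line at the median of all genes (-0.07). LSU and SSU are the large and small subunit. The list medians run from -0.35 in the mitochondrial rRNAs to 0.43 in the large subunit proteins with a bacterial counterpart and 0.46 in the genes of mitochondrial DNA transcription and replication.

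Of 10 regulators of mitochondrial biogenesis, 3 had positive values and the median was -0.31. Myc, a transcription factor known to act on ribosome and mitochondrial genes, was at 8.61 to 25.5 CPM in KPF and 87.7, 36.1 and 52.2 CPM in KPYYF libraries, without overlap (log2FC 1.84, SE 0.44, adjusted p = 0.0631 by edgeR). Its relative Mycn was at 1.64 to 3.65 CPM in KPF and at most 0.328 CPM, under the level of 3 counts, in KPYYF libraries, with a fitted value of -3.75 (adjusted p = 0.234) that depends on the prior count. Gabpa, an ETS factor subunit, had 0.04 (adjusted p = 0.979) and Nrf1 had -0.58 (adjusted p = 0.607).

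Fewer members had an unadjusted p under 0.05 in fits that took the Xist reads into account than in the main fit. There, 11 members (14.9%) were higher, against 6.1% of all genes. The Xist class of a library (at least 1000 reads, or fewer) was then added as a term in the fit. With it, 3 of 74 members were higher (Mrps26, Mrpl13 and Mrpl15), a share near the 3.76% of all genes. The median log2FC was 0.19, with a median near 0 over all genes. With the 6 libraries of at least 1000 reads only, 5 of 74 members were higher (the same 3, Mrpl18 and Mrps17), against 5.09% of all genes. The median was 0.20, against 0.03 over all genes. With KPF libraries 4504s and 4601 and KPYYF library 4449 left out, those with the most acinar or immune counts, a choice made after seeing the data, 12 members had an unadjusted p under 0.05, all above KPF (6.67% of all genes), and the median log2FC was 0.32 (-0.05 over all genes). Mrps26 and Mrpl13 were among the members counted in all 3 of these fits. In the last, Mrpl15 (unadjusted p = 0.0609 by edgeR), Mrpl27, Mrps22 and Mrpl38 were no longer counted. Mrpl20, Mrpl12, Mrpl17, Mrpl37 and Mrpl4 were counted there but not in the main fit. What these library differences contribute to the values was not tested.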

How the data were processed

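The deposited files give, for each library, unnormalized counts of reads on Ensembl genes, which the authors made from Lexogen QuantSeq 3′ Forward reads. The submitters' processing notes name STAR, HTSeq and mm10. Versions, annotation and strand setting are not given in the sources used here, and the study's methods describe BeadChip hybridization before a read filter and DESeq2, which the whole-number counts do not match. Symbols and coordinates came from GENCODE M21 (47224 of 47643 genes matched), promoters from RefSeq. An allele that both groups share is not reported here. Members and lists were chosen with earlier results of these data known.

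Genes with at least 100 counts in all (14105) were tested with edgeR 4.0.16 (TMM factors 0.833 to 1.08, robust quasi-likelihood, two-sided, R 4.3.3) without covariates. Standard errors were derived from the fold change and its F statistic. CPM used TMM library sizes, and log2 CPM a prior count of 2. The common biological coefficient of variation was 0.825. Transcript ends were compared with BLAST+ 2.17.0. Named were members with an adjusted p under 0.05, the 8 largest rises and falls at a mean of at least 10 CPM, the 5 smallest p and members of known role, and the extremes of lists. Alternatives were DESeq2 1.42.0, limma-voom (limma 3.58.1), RLE and upper quartile normalization, other filters, summed 4504 libraries, Xist class and each library left out. The tools were tested on simulated counts with planted changes larger than 2-fold, which does not cover changes of the size seen in most members. Figures used matplotlib 3.10.9.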

Additional observations from a re-analysis of the deposited data

Results flagged for a closer look

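In 4 of the 74 tested members (5.41%), 1 KPF library stood apart from the other 5 by more than Dixon's 95% limit on the log2 CPM scale. For normally distributed values chance gives this in about 1 of 20 genes, so the count is near that rate. The share over all genes tested was not computed. Mrpl36 was at 13.6 CPM in library 4269 and 35.1 to 48.3 CPM in the others. Mrpl54, also in library 4269, was at 1.46 CPM, against 23.1 to 76.8 CPM. Mrpl40 was at 11.6 CPM in library 4515, against 27.1 to 33.3 CPM. Mrps27 was at 2.04 CPM in library 4601, against 14.04 to 15.9 CPM. In all 4 the library that stood apart was the lowest.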

How the results depend on the processing

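No member had an adjusted p under 0.05 under any alternative except the DESeq2 Wald test, which called 3. Of 494 values of single named members over 19 alternatives, 477 kept their sign and their side of an adjusted p of 0.05. No member was under that threshold in the main fit, so this count does not cover the unadjusted p. Members with an unadjusted p under 0.05 kept it in 3 (Mrpl33 and Mrpl48) to 9 (Mrpl13, Mrpl15, Mrps17 and Mrps26) of the 9 fits that each left out 1 library. The 11 members higher at an unadjusted p under 0.05 (6.1% of all genes) became 3 with the Xist class as a term (3.76% of all genes). The number was 5 with only the libraries of at least 1000 Xist reads (5.09% of all genes). It was 7 to 11 when each library was left out (4.77% to 6.57% of all genes). The 1 lower member became 0 without the filter on low counts, 0 with libraries 4504h and 4504s summed, 0 with the 3 libraries with other cell type markers left out, and 0 to 1 when each library was left out. The 5 members without overlap became 9 with 4504h and 4504s summed (4.79% of all genes), 18 with the 3 libraries left out (14% of all genes), and 5 to 13 when each library was left out (4.66% to 8.74% of all genes), since fewer libraries make overlap less likely. The median log2 fold change was 0.23 to 0.39 when each library was left out, with the lowest value without KPYYF library 4938. Over all genes the median was -0.31 without the filter and -0.11 with limma-voom, so values of members stand higher relative to it there.

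The sign turned for 5 named members, and the cause was not tested. Mrpl44 had -0.23 with limma-voom, -0.25 with the 3 libraries left out and -0.33 to 0.87 when each library was left out. Mrpl11 had -0.012 with the 4504 libraries summed and -0.13 to 0.16 when each was left out. Mrps18c had -0.24 with the Xist term, -0.22 with the Xist-rich libraries only and -0.11 to 0.33 when each was left out. Mrps12 had 0.28 with the 3 libraries left out and -0.86 to 0.25 when each was left out, and Mrps5 had -1.15 to 0.024 when each was left out. No paired analysis was possible because the groups share no mouse number. With 3 libraries in 1 group and a median standard error of 0.42, changes of the size seen in most members lie below what this comparison resolves.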
